A study of Mus musculus with 9 samples.

Results

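The Schlafen genes are a small family of immune-response genes, and 7 of them (Slfn1, Slfn2, Slfn3, Slfn4, Slfn5, Slfn8 and Slfn9) were followed here through an inflammatory stimulus and its modification by butyrate. They were taken by gene symbol, and each symbol matched 1 row among the 43629 genes listed. RNA was sequenced from RAW264.7, a mouse macrophage-like line of tumour origin that arose after infection with Abelson leukaemia virus. The 9 libraries form 3 groups of 3, namely untreated control cells, cells given lipopolysaccharide (LPS, a bacterial cell-wall endotoxin) and cells given both LPS and sodium butyrate (NaBu, a gut bacterial fatty acid that inhibits histone deacetylases). The study describes NaBu as a pretreatment, the labels give no dose or duration, and a group given NaBu without LPS was not analysed here. All libraries come from 1 cell line. The labels do not tell whether the replicates were grown separately, so each p-value rests on a spread that may be technical.

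Schlafen proteins take their name from the German word for sleep, because the founding member, Slfn1, stopped the growth of T cells that overexpressed it. They share a core domain that in several members binds or cuts transfer RNA, and many are induced by interferon in immune cells. The mouse proteins are grouped by length into short (Slfn1 and Slfn2), intermediate (Slfn3 and Slfn4) and long forms (Slfn5, Slfn8 and Slfn9), of which the long ones add a helicase-like domain. In macrophages, LPS binds Toll-like receptor 4, which signals through NF-κB and through interferon-β, and interferon-β then acts back on the cells through its receptor.

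All 7 genes lie in 1 cluster of 267 kb on chromosome 11 (GRCm39, chr11:82842100-83109101, GENCODE M39). Slfn5 opens the cluster on the plus strand (chr11:82842100-82855666). Slfn9 (chr11:82868552-82882656) and Slfn8 (chr11:82892984-82911669) follow on the minus strand. The plus strand then carries Slfn2 (chr11:82955609-82961504), Slfn1 (chr11:83007615-83013496), Slfn4 (chr11:83066012-83081042) and Slfn3 (chr11:83082123-83109101). Their annotated proteins have 337 residues for Slfn1, 378 for Slfn2, 640 for Slfn3, 602 for Slfn4, 884 for Slfn5, and 910 each for Slfn8 and Slfn9.

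The promoters are shown first, because exact matches to the letters marked below separate the long genes from the short and intermediate genes. Near matches were not counted, so neither set is shown to lack the other's sites. The bare letters GGAA, for example, also occur in the Slfn5 sequence shown. The sequences are from RefSeq (GRCm38.p6, an earlier build than the gene positions above), written 5′ to 3′ on the strand of the gene. For the short and intermediate genes, capitals mark ACTTCCTGG, which holds the GGAA core that ETS factors such as the macrophage factor PU.1 bind, read on the opposite strand. This element was chosen after the sequences were seen.

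Slfn1 (chr11:83116721-83116780, plus strand): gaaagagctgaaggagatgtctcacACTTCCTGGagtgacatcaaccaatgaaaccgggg

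Slfn2 (chr11:83065032-83065091, plus strand): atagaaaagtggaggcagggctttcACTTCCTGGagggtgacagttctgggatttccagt

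Slfn4 (chr11:83175088-83175147, plus strand): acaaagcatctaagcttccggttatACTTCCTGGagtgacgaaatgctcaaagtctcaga

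Slfn3 (chr11:83191263-83191322, plus strand): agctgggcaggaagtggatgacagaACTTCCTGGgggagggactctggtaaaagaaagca

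For the long genes, capitals mark matches to GAAANNGAA on either strand, the core of the interferon-stimulated response element (ISRE), to which interferon-regulated factors bind.

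Slfn5 (chr11:82951922-82952004, plus strand): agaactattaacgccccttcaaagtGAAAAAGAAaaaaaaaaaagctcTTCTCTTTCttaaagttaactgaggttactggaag

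Slfn8 (chr11:83020823-83020882, minus strand): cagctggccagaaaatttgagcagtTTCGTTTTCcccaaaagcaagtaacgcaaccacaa

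Slfn9 (chr11:82991840-82991899, minus strand): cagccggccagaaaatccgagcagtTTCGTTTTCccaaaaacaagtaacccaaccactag

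Both strands were searched in windows running from 250 bases before to 50 after each start. The ISRE core was found in Slfn5, Slfn8 and Slfn9, and in 8.56% of all 32851 promoter windows of that length. The Slfn5 window has 2 matches, and the one farther from the start lies in a run of A. Slfn8 and Slfn9 carry the same 9 letters, TTCGTTTTC, at 47 and 44 bases before their starts, in promoters that are 84.9% identical over 292 aligned bases.

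The ETS element was found in Slfn1, Slfn2, Slfn3 and Slfn4, at 42 to 74 bases before the start, and in 0.843% of all windows. An AP-1 motif (TGANTCA, present in 7.81% of windows) was found in Slfn4 alone. The NF-κB letters GGGANTTTC (1.11% of windows) occurred in none of the 7 windows. Only this form was searched, and near forms, such as gggatttcc in the Slfn2 sequence above, were not counted. These are matches of letters, and no binding was measured here.

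**Figure D1:**
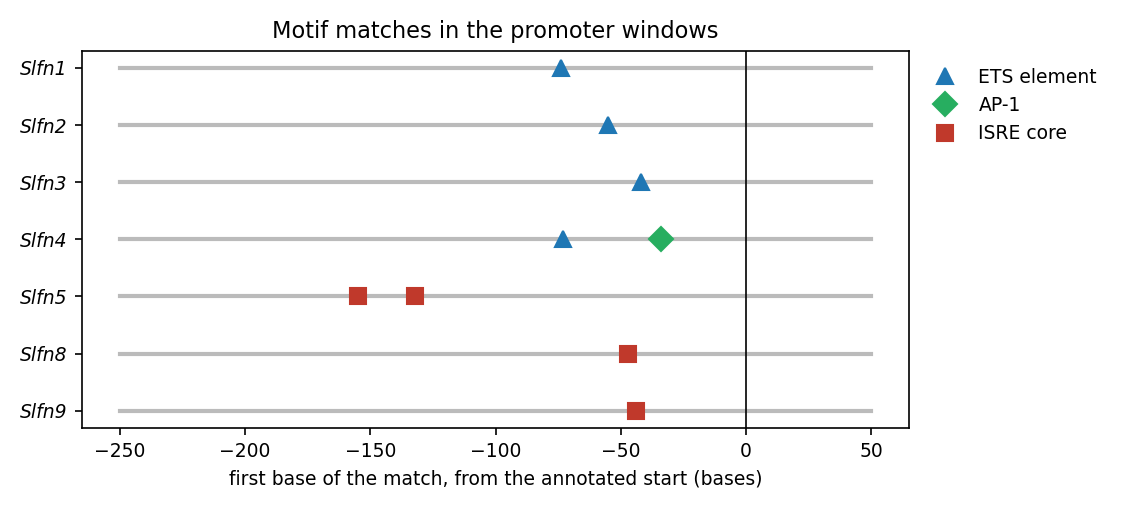
Positions of motif matches in the promoter windows of the 7 Schlafen genes; the x axis is the distance in bases of a match's first base from the annotated start (vertical line), grey lines are the windows searched, and symbols mark the ISRE core (squares), the ETS element (triangles) and AP-1 (diamond). The ISRE core appears in Slfn5, Slfn8 and Slfn9 and the ETS element in Slfn1, Slfn2, Slfn3 and Slfn4.

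Values below are normalised counts, that is, gene read counts divided by 1 size factor per library, and the libraries hold recovered reads of 37.6 to 64.4 M each. Within groups, libraries correlated at 0.987 to 0.993 over genes. Of 10 macrophage markers, 9 were matched by symbol, and their summed level ranged over 459448 to 476862 in the control libraries, 629960 to 669602 with LPS and 211472 to 229555 with LPS+NaBu. The list was lowest in the LPS+NaBu libraries, where the Schlafen genes also fell, and its part in their result was not tested. In bulk RNA, fewer cells making a transcript and less transcript per cell cannot be told apart.

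Each gene was tested with limma on the log2(value + 1) scale, where a fold change understates the change of a low gene. A gene was called when its Benjamini-Hochberg adjusted p over 14808 tested genes was under 0.05, and all 7 Schlafen genes passed the filter on low values. With LPS, 6 of the 7 were called higher than control and none lower, against 25.2% of all tested genes called higher, 30.8% lower and 56.1% in either direction. With LPS+NaBu, all 7 were called lower than with LPS alone, against 37.8% of all tested genes lower, 40.2% higher and 78.1% in either direction. Against control, LPS+NaBu left 5 of the 7 called higher and 2 lower, against 40.9% and 35.1% of all tested genes and 76.1% in either direction. With libraries scaled to the same sum, the split of all calls moved from 3739 higher and 4568 lower to 2266 and 7078 for LPS against control, and from 5956 and 5602 to 7431 and 4128 for LPS+NaBu against LPS, while 6 and 7 Schlafen genes were called in the same directions. The median log2 fold change of the 7 was 5.09 for LPS against control, −3.79 for LPS+NaBu against LPS and 0.46 for LPS+NaBu against control, beside −0.05, 0.02 and 0.09 over all tested genes. The 3 comparisons share their groups, so they are not independent of each other.

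**Figure D2:**
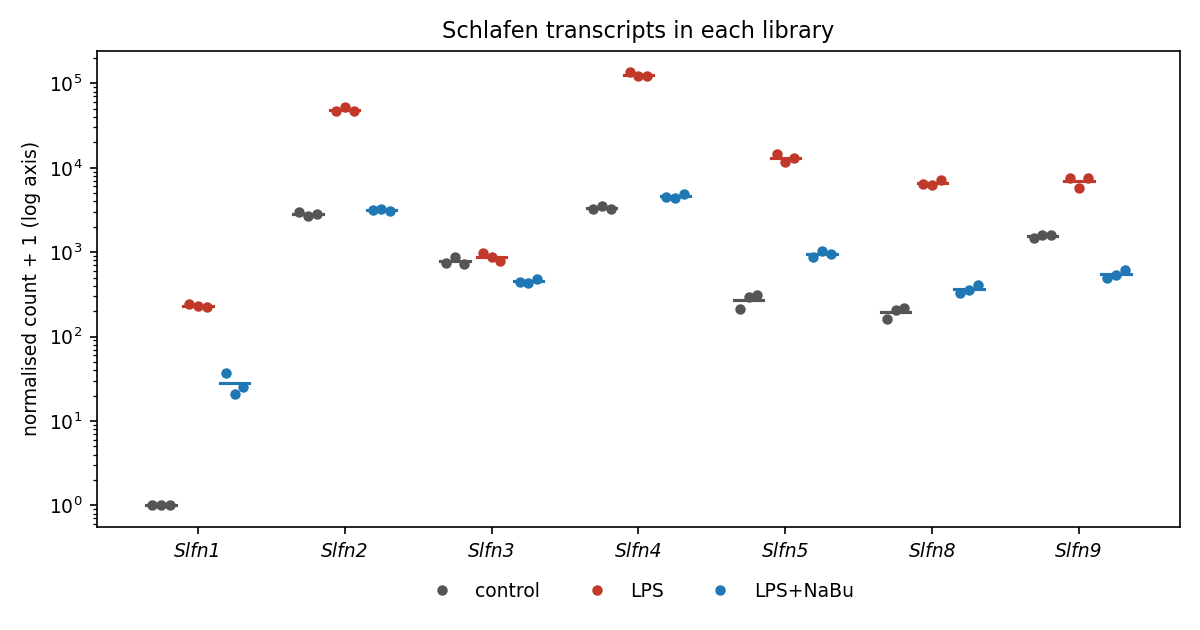
Normalised count + 1 (log axis) of each Schlafen gene in each of the 9 libraries; points are libraries, coloured by group, and lines are group means. The LPS libraries stand above all others for every gene but Slfn3, whose LPS and control libraries overlap.

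Among the short forms, Slfn2 protects transfer RNA from cleavage by the ribonuclease angiogenin and keeps T cells quiescent. Its normalised counts were 3014, 2708 and 2823 in control, 46696, 53052 and 46727 with LPS, and 3192, 3249 and 3048 with LPS+NaBu. The LPS libraries stood far above the rest, and the LPS+NaBu libraries lay just above the control ones without overlap. LPS raised Slfn2 17.1-fold, from 2849 ± 154 to 48825 ± 3661 (SD, n = 3), a log2 fold change of 4.10 ± 0.06 (SE, limma adjusted p = 5.73e-15). With LPS+NaBu it was 15.4-fold lower than with LPS alone (log2 fold change −3.95 ± 0.06, limma adjusted p = 1.59e-14). The remaining difference from control was a log2 fold change of 0.15 ± 0.06 (limma adjusted p = 0.0299), and it did not pass the test without control replicate 2 (adjusted p = 0.122), control replicate 3 (0.0739), LPS+NaBu replicate 1 (0.0695) or LPS+NaBu replicate 2 (0.0954), nor by edgeR (0.198).

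Slfn1, the family's founding growth regulator in T cells, was read 0 times in all 3 control libraries. The normalised counts were 241, 230.1 and 220.3 with LPS, and 36.4, 20.1 and 24.5 with LPS+NaBu. These rest on 156 to 240 reads per LPS library and 18 to 53 per LPS+NaBu library, and Slfn1 was the scarcest member in every group. Set against a floor of 3 reads per control library, Slfn1 was at least 82.2-fold higher with LPS than in control (limma adjusted p = 1.93e-10). It was 8.53-fold lower with LPS+NaBu than with LPS (log2 fold change −3.09 ± 0.31, limma adjusted p = 9.16e-07). It stayed at least 9.64-fold above control, with LPS+NaBu (limma adjusted p = 1.17e-08). The fitted log2 fold changes from a group at 0, 7.85 ± 0.31 for LPS and 4.77 ± 0.31 for LPS+NaBu, depend on the pseudocount.

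Of the intermediate forms, Slfn4 is known from myeloid cells, where it rises during macrophage activation. Its normalised counts were 3290.0, 3510.4 and 3235 in control, 134830.0, 123317 and 122754 with LPS, and 4544, 4393 and 4892 with LPS+NaBu. The groups did not overlap, and Slfn4 had the highest count of the family in every library. LPS raised it 38.0-fold, to 126967 ± 6815 (SD, n = 3), a log2 fold change of 5.25 ± 0.05 (limma adjusted p = 3.91e-16). With LPS+NaBu it was 27.5-fold lower than with LPS (log2 fold change −4.78 ± 0.05, limma adjusted p = 1.76e-15), the lowest log2 fold change of the 7. It ended 1.38-fold above control (log2 fold change 0.46 ± 0.05, limma adjusted p = 4.19e-06).

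Slfn3, which in T cells marks regulatory subsets and in the gut is tied to enterocyte differentiation, behaved unlike its neighbour Slfn4. Its normalised counts were 745, 872 and 714 in control, 980.5, 884 and 795 with LPS, and 446, 429 and 482 with LPS+NaBu. Control and LPS libraries overlapped, and all LPS+NaBu libraries lay below both. The LPS mean was 1.14 times the control mean, a log2 fold change of 0.19 ± 0.10 that did not pass the test (limma adjusted p = 0.122). Leaving out control replicate 2, the highest control, gave 0.28 (adjusted p = 0.0394), and scaling libraries to the same sum gave −0.037 (adjusted p = 0.777). Against LPS, LPS+NaBu lowered Slfn3 1.96-fold (log2 fold change −0.97 ± 0.10, limma adjusted p = 9.93e-07). Against control the log2 fold change was −0.78 ± 0.10 (limma adjusted p = 9.30e-06), so Slfn3 went below its untreated level.

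Within each library, Slfn4 was 4.03 to 4.53 times Slfn3 among controls, 138 to 154 times with LPS and 10.2 times with LPS+NaBu. None of these ranges overlapped, and each pair of groups reached 0.1 in a two-sided exact permutation test, the smallest p that 3 against 3 allows. The coding sequences of the pair are 92.7% identical, but none of the 150-base windows of Slfn4's exons occurs in another annotated gene, and 0.842% of those of Slfn3 do. Of the 50-base windows, 11.9% of Slfn4's recur in other genes (6.58% in Slfn3), and 8.94% of Slfn3's do (4.95% in Slfn4). The effect of misplaced reads on the ratio was not tested.

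Among the long forms, Slfn5 is an interferon-induced nuclear protein that can regulate transcription. Its normalised counts were 212, 296 and 311 in control, 14702, 11819.6 and 13126 with LPS, and 884, 1032 and 951 with LPS+NaBu. The 3 groups were well apart. LPS raised Slfn5 48.4-fold, from 273 ± 53.1 to 13216 ± 1443 (SD, n = 3), a log2 fold change of 5.61 ± 0.13 (limma adjusted p = 5.50e-13). It was 13.8-fold lower with LPS+NaBu than with LPS (log2 fold change −3.79 ± 0.13, limma adjusted p = 1.19e-11). It stayed 3.50-fold above control (log2 fold change 1.82 ± 0.13, limma adjusted p = 1.96e-08). An antisense gene, Slfn5os, covers 19.8% of its exon bases, and was listed at no more than 1.81 in any library.

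Slfn8 is a long, helicase-bearing member linked to growth control of T cells. Its normalised counts were 161, 204 and 218 in control, 6357, 6283 and 7239 with LPS, and 329, 352 and 406 with LPS+NaBu. Every LPS+NaBu library stood above every control library and far below the LPS ones. LPS raised Slfn8 34.1-fold (log2 fold change 5.09 ± 0.12, limma adjusted p = 6.00e-13). With LPS+NaBu it was 18.3-fold lower than with LPS (log2 fold change −4.19 ± 0.12, limma adjusted p = 2.15e-12). It remained 1.87-fold above control (log2 fold change 0.90 ± 0.12, limma adjusted p = 9.65e-06). Opposite-strand transcripts of the GENCODE M39 annotation cover 26.7% of its exon bases, and reads of the 2 strands can be told apart only if the counting used strand, which the sources used here do not state.

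Among the long members followed here, Slfn9 is the one most like Slfn8, with a coding sequence 92.7% identical to it. Slfn10-ps, described below, is 92.8% identical to Slfn8. In control, the normalised counts of Slfn9 were 1464, 1592 and 1616, beside 7511, 5825 and 7625 with LPS, and 487, 535 and 609.5 with LPS+NaBu. Here the order of the groups differed from Slfn8, since the LPS+NaBu libraries lay below the control ones. LPS raised Slfn9 4.49-fold (log2 fold change 2.16 ± 0.10, limma adjusted p = 1.23e-09). With LPS+NaBu it was 12.8-fold lower than with LPS (log2 fold change −3.68 ± 0.10, limma adjusted p = 2.48e-12). It fell to 34.9% of control (log2 fold change −1.52 ± 0.10, limma adjusted p = 1.61e-08).

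The Slfn8 to Slfn9 ratio within a library ranged from 0.110 to 0.135 in control and from 0.846 to 1.08 with LPS, and was 0.658 to 0.677 with LPS+NaBu. Each pair of groups was apart (two-sided exact permutation p = 0.1, the smallest possible). The Slfn5 to Slfn9 ratio was 0.145 to 0.192 in control and 1.72 to 2.03 with LPS. With LPS+NaBu it was 1.56 to 1.93, which overlaps the LPS range (two-sided exact permutation p = 0.5). Of the 150-base windows in Slfn9's exons, 1.36% recur elsewhere, all in Slfn10, and 11.6% of its 50-base windows recur, and reads as short as that could not be placed between the copies.

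**Figure D3:**
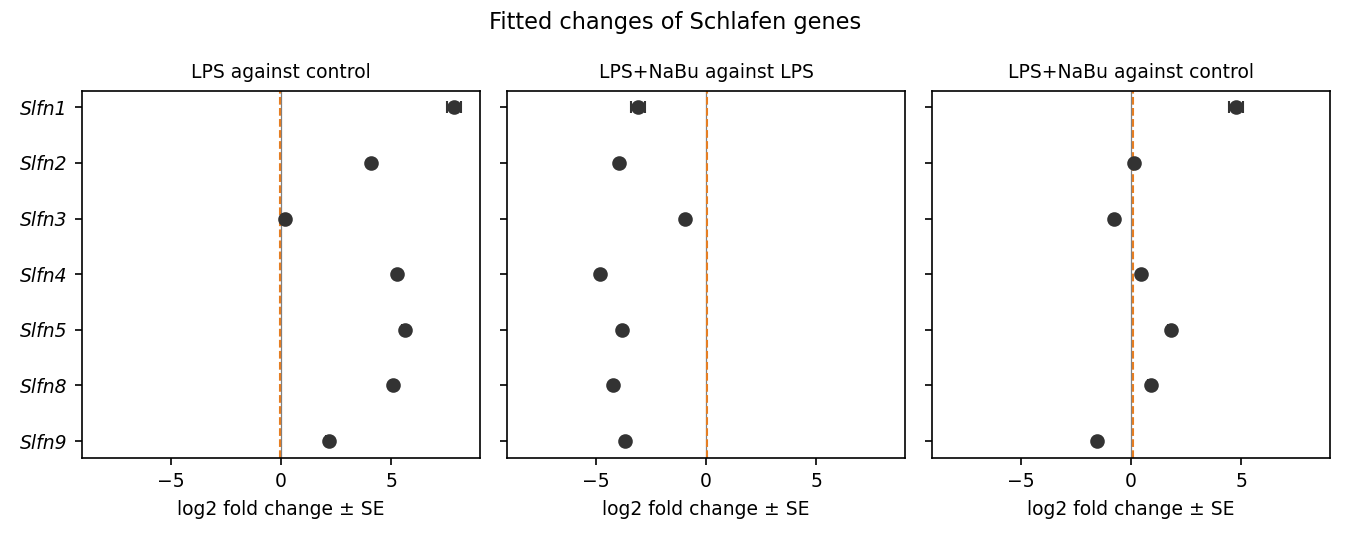
Fitted log2 fold change of each Schlafen gene in the 3 comparisons; points are limma estimates, bars their standard errors (smaller than the point for most genes), the grey line is 0 and the dashed line the median of all tested genes. With LPS+NaBu against control the genes fall on both sides of 0, from Slfn9 at −1.52 to Slfn1 at 4.77.

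The sizes of the changes were also set beside those of all genes. A log2 fold change above 4 was found for 225 genes (1.52% of those tested) with LPS against control, and Slfn1, Slfn2, Slfn4, Slfn5 and Slfn8 were among them. With LPS+NaBu against LPS, 239 genes (1.61%) fell by more than 3, and they include all members but Slfn3. Slfn1 was close to that limit and did not reach it without LPS+NaBu replicate 2 (−2.90), with libraries scaled to the same sum (−2.82), with a pseudocount of 10 (−2.72) or on the variance-stabilised scale (−2.06). Slfn2 did not exceed 4 with LPS when libraries were scaled to the same sum (3.87) or quantile normalised (3.77). Nor did Slfn1 on the variance-stabilised scale (3.50). Groups did not overlap for 6, 7 and 7 of the 7 genes in the 3 comparisons, beside 60.6%, 79.0% and 79.4% of all tested genes.

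Levels of different genes were compared per kilobase of exon. In control, Slfn2 made up 54.4% ± 2.48 (SD, n = 3) of the 7 genes' summed level per kilobase, and Slfn4 28.8% ± 1.31. Slfn9 followed at 8.94% ± 0.572, then Slfn3 at 4.48% ± 0.487, Slfn8 at 1.79% and Slfn5 at 1.61%, the last 2 with overlapping ranges. With LPS the leading pair changed places, with Slfn4 at 49.4% ± 2.14 and Slfn2 at 42.1% ± 2.79, and Slfn5, Slfn8 and Slfn9 followed at 3.51%, 2.77% and 1.81%.

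With LPS+NaBu, Slfn2 led again at 52.4% ± 2.10 and Slfn4 held 34.4% ± 1.67. Slfn5 came next at 4.87% ± 0.368, while Slfn8 (2.90%) and Slfn9 (2.71%) overlapped, and Slfn3 held 2.26% and Slfn1 0.441%. The summed level per kilobase went from 2629 ± 31.0 in control to 58206 ± 1556 with LPS, and was 3030 ± 26.9 with LPS+NaBu (SD, n = 3). Compared with control, the shares of Slfn9 and Slfn3 were smaller with LPS+NaBu, and those of Slfn4, Slfn5 and Slfn8 were larger.

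**Figure D4:**
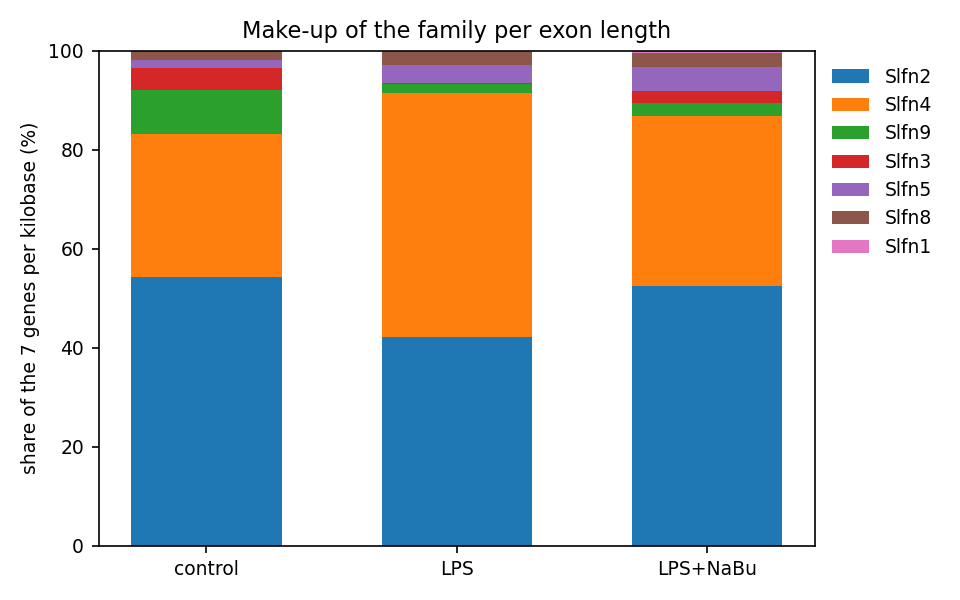
Mean share (%) of each gene in the summed level of the 7 Schlafen genes per kilobase of exon, for control, LPS and LPS+NaBu (3 libraries each); colours stack to the whole. Slfn4 grows from 28.8% to 49.4% with LPS, and Slfn9 shrinks from 8.94% to 1.81%.

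Other rows with a Schlafen name were few. Slfn10-ps, named Slfn10 in the newer annotation and 93.2% identical to Slfn9 in coding sequence, had normalised counts of 837, 900.1 and 873 in control, 4262, 3641 and 4069 with LPS, and 404, 437 and 486 with LPS+NaBu. Like Slfn9, it was higher with LPS (log2 fold change 2.19) and ended below control with LPS+NaBu (−0.98). Slfn14, a ribosome-associated ribonuclease described in immature red cells, did not exceed 6.35 in any library, and the distant Slfnl1 did not exceed 6.04.

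The members were also set beside the pathways they are known from. Of 13 interferon signalling genes, 11 rose and 1 fell with LPS (median log2 fold change 3.03), beside 25.2% and 30.8% of all tested genes. The 11 include Ifnb1, encoding interferon-β (0.667 ± 1.15 to 167 ± 10.3), and Irf7, the factor that amplifies it (252 ± 97.0 to 43710 ± 2663, SD, n = 3). Ifnb1 passed the filter on low values only through the LPS group. With LPS+NaBu against LPS, 8 of the 13 fell and 4 rose (median −0.65), beside 37.8% and 40.2%. Ifnb1 fell to 5.13 ± 0.584 and Irf7 to 5350 ± 233. Against control, 12 of the 13 stayed higher with LPS+NaBu and 1 was lower (median 2.08), beside 40.9% and 35.1%.

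A list of 10 genes that restrict retroviruses and viral RNA, functions also known for Schlafen proteins, had 9 higher and none lower with LPS (median 2.39). Of all tested genes, 25.2% were higher and 30.8% lower. With LPS+NaBu 9 of the 10 were lower and 1 higher than with LPS (median −1.69), beside 37.8% and 40.2%. Trim30a, a TRIM protein of the innate response, went from 48.9 ± 16.3 to 12880 ± 526 and back to 495 ± 84.8 (SD, n = 3). Mov10, an RNA helicase that restricts retroviruses, went from 645 ± 12.9 to 5337 ± 397 and then to 550 ± 11.9. Against control, 8 of the 10 were higher with LPS+NaBu and 2 lower (median 0.77), beside 40.9% and 35.1%.

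Of 10 genes listed under angiogenin and the transfer RNA stress response, 8 were tested. With LPS 7 of them were lower and none higher (median −0.33), where 30.8% and 25.2% of all tested genes were. With LPS+NaBu against LPS 4 were lower and 3 higher (median −0.08), near the 37.8% and 40.2% of all tested genes, and among the lower ones was Trmt2a, a transfer RNA methyltransferase (5362 ± 245 to 2048 ± 98.8, SD, n = 3). Against control 5 were lower with LPS+NaBu and 1 higher (median −0.28), beside 35.1% and 40.9% of all tested genes. Angiogenin itself, Ang, did not exceed 6.04 in any library. Slfn2 opposes the cleavage of transfer RNA by angiogenin, but the list does not stand for that cleavage alone. It also holds Rnh1, an inhibitor of angiogenin, and Dnmt1, a DNA methyltransferase. Dnmt1 was among the lower genes in each comparison, and the counts above include it.

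Among 16 growth and cell-cycle genes, 4 were higher and 9 lower with LPS (median −0.18), beside 25.2% and 30.8% of all tested genes. With LPS+NaBu 5 were higher and 9 lower than with LPS (median −0.25), beside 40.2% and 37.8%. Against control, 6 were higher and 8 lower with LPS+NaBu (median −0.58), beside 40.9% and 35.1%. Ccnd1, the cyclin that drives entry into the cell cycle, went from 21542 ± 235 in control to 50434 ± 881 with LPS, and was 1347 ± 22.6 with LPS+NaBu. The proliferation marker Mki67 was 34130 ± 2163, 17844 ± 1322 and 4350 ± 226 in the same order (SD, n = 3). Mki67 was thus lower at each step, and Ccnd1 was highest with LPS, as 6 of the Schlafen genes were. For this list and the transfer RNA list, the medians for LPS+NaBu against LPS were smaller than the 0.276 by which scaling to the same sum shifted all genes in that comparison. The growth list's LPS median was likewise smaller in size than the shift of −0.227 for LPS against control.

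Markers of other cell types were also counted. Of 9 macrophage markers tested, 5 were higher and 1 lower with LPS, and 8 were lower and 1 higher with LPS+NaBu against both LPS and control. The 1 higher, Mertk, passed the filter on low values only through the LPS+NaBu group. Of all tested genes, 25.2% were higher and 30.8% lower with LPS. With LPS+NaBu, 37.8% were lower and 40.2% higher than with LPS, and 35.1% and 40.9% than in control. The T-cell list summed to 435 to 488 in the control libraries, 1302 to 1474 with LPS and 225 to 246 with LPS+NaBu, nearly all of it Lck, a kinase with means of 456 ± 28.5, 1382 ± 86.0 and 211 ± 5.47 (SD, n = 3). The B-cell list summed to 8.05 to 20.002, 74.9 to 104 and 46.3 to 56.4 in the same order, mostly Pax5 with LPS (86.3 ± 12.5). Of its 3 tested genes only Pax5 was called higher with LPS, from 0 in control, and it was called lower with LPS+NaBu than with LPS. The other 2, Cd79b (1.45 ± 1.27 to 21.9 ± 3.56) and Cd79a (4.68 ± 3.06 to 21.0 ± 2.85), were called higher in the LPS+NaBu group than in the LPS group, opposite to the Schlafen genes. The neutrophil list summed to 18.1 to 27.03, 117 to 126 and 43.3 to 47.2. Both of its tested genes were called higher with LPS and lower again with LPS+NaBu, S100a8 at 18.1 ± 4.09, 101 ± 7.20 and 25.4 ± 3.26, and Camp at 2.39 ± 2.11, 18.9 ± 7.09 and 5.14 ± 2.83. The T-cell receptor genes Cd3d, Cd3e and Cd3g did not exceed 6.36 in any library, and Ms4a1 of the B-cell list and S100a9 of the neutrophil list were at 0 throughout. Lck, Pax5, S100a8 and Camp were thus, like 6 of the Schlafen genes, highest with LPS, and their part in the results was not tested. The fibroblast list, at 6.36 to 12.1, 13.0 to 18.8 and 268 to 296, was highest with LPS+NaBu. There 4 of its 4 tested genes were called higher than in either other group. They passed the filter on low values only through that group, so these calls were largely fixed by the filter. The other listed genes, Col1a2 and Dcn, did not exceed 2.75 and 2.35 in any library. Cd79a and Cd79b likewise passed only through LPS+NaBu, and Pax5 and Camp only through LPS, so the same limit holds for their calls.

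For each Schlafen gene, the genes outside the family with the most similar pattern were found by the root mean square (RMS) difference of centred log2 values over the 9 libraries. Slfn1 lay closest to Tnfsf10, the death ligand TRAIL (RMS difference 0.282), then to Usp18 (0.319) and Irf7 (0.365). Slfn2 lay closest to Uba7, the activating enzyme of the ubiquitin-like protein ISG15 (0.181), then to Nmi (0.252) and Fcgr1 (0.255). Slfn5 lay closest to Sp100 (0.185), a nuclear body protein, then to Epsti1 (0.219) and Samd9l (0.312).

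Slfn4 and Slfn8 both had Tnf, the inflammatory cytokine, as their closest gene, at 0.256 and 0.145. Tnf had means of 4686 ± 105, 179534 ± 6954 and 9250 ± 129 (SD, n = 3) in control, LPS and LPS+NaBu. Slfn9 lay closest to the chemokine receptor gene Cxcr3 (0.154), and Slfn3 to Tmem168 (0.0771) and Eif4a2 (0.0805). Within the family, Slfn4 and Slfn8 were the most alike (0.289) and Slfn1 and Slfn3 the least (3.24). The paralogues Slfn8 and Slfn9 differed by 1.29 and Slfn3 and Slfn4 by 2.15, more than Slfn8 differed from Slfn2 (0.465) or Slfn5 (0.394).

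Beyond the family, 84 other genes are annotated within 500 kb of the cluster, of which 43 are listed and 28 were tested. With LPS 17 were higher and 2 lower (median 0.37), beside 25.2% and 30.8% of all tested genes. Relative to LPS, 6 were higher and 16 lower with LPS+NaBu (median −0.44), beside 40.2% and 37.8%. With LPS+NaBu against control 14 were higher and 8 lower (median 0.25), beside 40.9% and 35.1%. The largest LPS changes belonged to Ccl5, a T-cell-attracting chemokine (log2 fold change 10.49 ± 0.14), Heatr9 (5.82 ± 0.21), the chemokine gene Ccl3 (4.40 ± 0.05) and Unc45b, a myosin chaperone (3.69 ± 0.53).

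With LPS+NaBu against LPS, Ccl5 rose by a further 1.47 ± 0.14 on the log2 scale, Heatr9 by 2.01 ± 0.21 and Unc45b by 2.46 ± 0.53, the direction opposite to the Schlafen genes. Ccl3 fell (−2.39 ± 0.05), as did the chemokine genes Ccl9 (−2.23 ± 0.06) and Ccl4 (−1.85 ± 0.05), which were named after their values were seen, in the direction of the Schlafen genes. Mmp28, a matrix metalloproteinase gene, had the largest change there (4.90 ± 0.32), and Wfdc18, Wfdc17 and Gm11425 were lower (−3.82 ± 0.70, −3.30 ± 0.09 and −3.03 ± 0.13). Wfdc18 passed the filter on low values only through the LPS group, so its fall was largely fixed by the filter. Gm11425, a pseudogene, lies inside the span of the cluster, at 76.2 to 76.7 kb from the start of Slfn5. It is beside Slfn10 (76.9 to 116 kb) on the same strand. Its changes in the 3 comparisons were 2.04, −3.03 and −0.99, near those of Slfn10 (2.19, −3.17 and −0.98), and a link between them was not tested. Gm11427, a transcribed pseudogene just past Slfn3 that was picked out after its values were seen, had changes near those of Slfn3 (0.23, −1.08 and −0.85 in the 3 comparisons). Gm11427 is among the genes that share 150-base windows with Slfn3, and the part of shared sequence in this likeness was not tested.

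**Figure D5:**
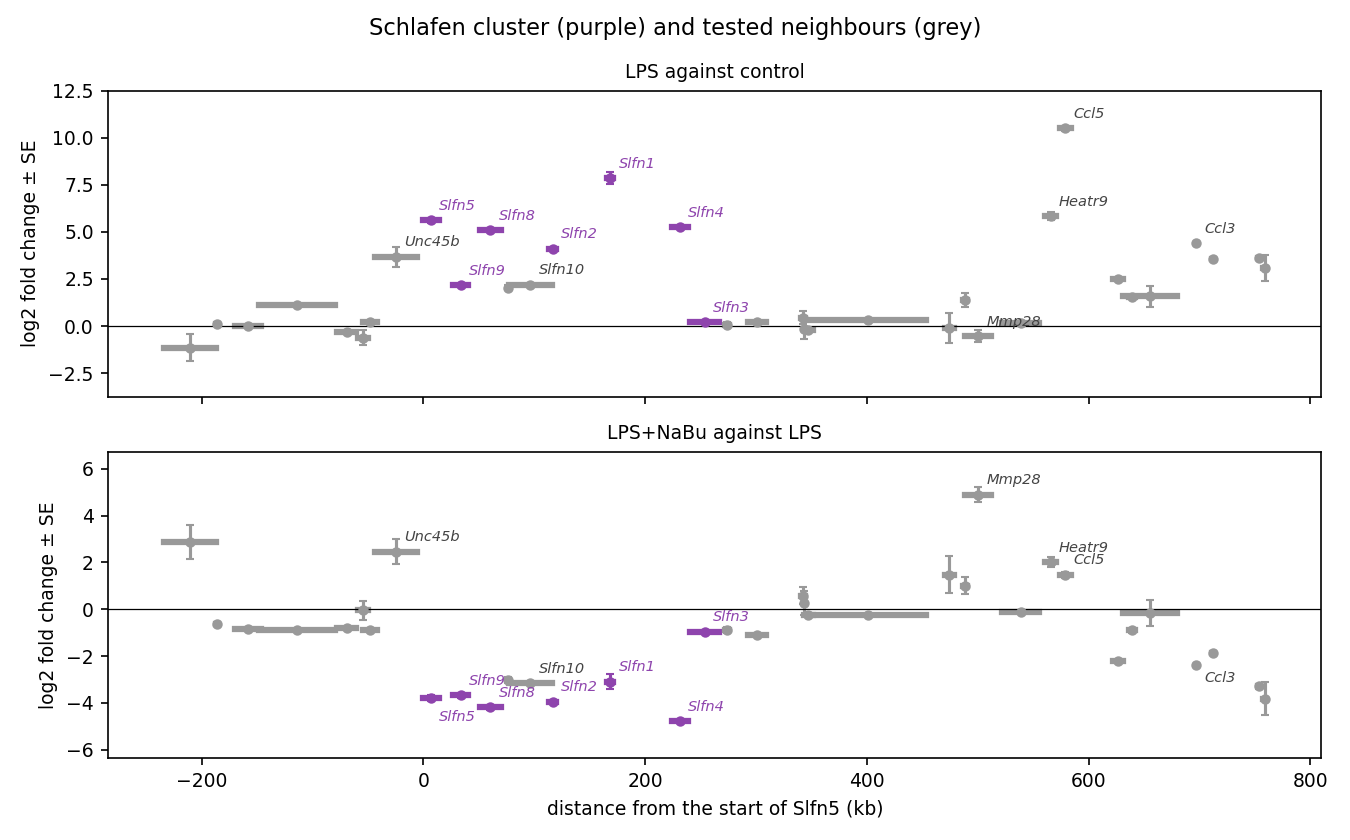
Log2 fold change (limma, bars are SE) of the 7 Schlafen genes (purple) and the other tested genes (grey) within 500 kb, for LPS against control (top) and LPS+NaBu against LPS (bottom), by distance in kb from the start of Slfn5; horizontal bars are gene spans. Slfn10 is also drawn in grey. With LPS+NaBu the 7 Schlafen genes lie between −0.97 and −4.78, and of the 28 tested genes outside the family 6 were called higher (among them Unc45b, Heatr9, Ccl5 and Mmp28) and 16 lower (among them Ccl3).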

How the data were processed

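RNA was sequenced in 9 libraries. The deposited files name their values FPKM, but they are signal values that the authors made by dividing gene counts by 1 size factor per library; every value was a whole multiple of a library step (tolerance 0.001), and the steps matched DESeq2 size factors. They are called normalised counts. Per the submitters' processing notes, the tools were STAR 2.7.7a and DESeq2 with the mm39 build, whereas the study's methods name HISAT2 and featureCounts, so the aligner is uncertain. The kit was directional; the sources used here do not state whether counting used strand.

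Genes with at least 10 in at least 3 libraries were tested with limma 3.58.1 (R 4.3.3, trend, 1 mean per group, pseudocount 1) and Benjamini-Hochberg adjustment over 14808 genes, after a check on simulated data. Alternatives used edgeR 4.0.16 and DESeq2 1.42.0 on recovered reads. Ratios were compared with exact permutation tests (scipy 1.17.1), and sequences aligned with Biopython 1.88. Of the listed IDs, 89.4% matched GENCODE M39 and all 7 members did; all 7 matched RefSeq promoters, Slfn8 with 2 starts, the first of which is described.

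The members, gene lists and tests were chosen with earlier results of these data known. Named genes were the 7 members, other Slfn rows, up to 4 called genes per list and comparison with the largest changes, 3 nearest patterns per member, and up to 4 neighbours per comparison. The macrophage marker not matched by symbol was Adgre1. Counting limits (a floor of 3 reads) cover counting error only. Some items withheld from the text are not reported here.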

Additional observations from a re-analysis of the deposited data

How the results depend on the processing

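Each of the 21 Schlafen fold changes was recomputed under 21 alternatives (pseudocount, filter, scaling, other tests, 6 libraries only, a replicate block and each library left out), and 432 of 441 values kept their direction and side of the threshold. For 19 fold changes every alternative did so. Slfn3 for LPS against control reversed to −0.037 with libraries scaled to the same sum, and ranged from 0.11 to 0.28 with 1 library left out. Slfn2 for LPS+NaBu against control was not called under 7 alternatives (adjusted p from 0.00408 to 0.198 over all 21). The cause was not tested. Scaling to the same sum shifted the median log2 fold change of all genes by −0.227 for LPS against control and 0.276 for LPS+NaBu against LPS. Same-numbered libraries deviated together with correlations of −0.0444 to 0.0202, so the numbers share only a number; with the replicate block 6, 7 and 7 Schlafen genes and 7977, 11464 and 11124 genes in all were called. Depth limits Slfn1, which had no read in control.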
